A study of Homo sapiens with 4 samples.

Results

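Aminoacyl-tRNA synthetases are the enzymes that join each amino acid to its own transfer RNA, and 35 of their genes are described here in the human melanoma line MelJuSo treated with topoisomerase II drugs. The genes were chosen by name, and measured values are no part of the rule, though earlier results of these data were known when the list was made. Of them, 19 encode enzymes that work in the cytosol and 16 encode enzymes of the mitochondrion. Of the 35, 34 had a named probe on the array, out of 18665 genes with one, and YARS2 had no named probe here. The 34 genes were covered by 41 probes, and 5 genes had more than 1 probe. All 34 were detected in untreated cells at a detection p-value under 0.01, and 29 were detected on all 4 arrays.

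The series holds 4 Illumina expression beadchips, 1 for each group. One group of MelJuSo cells was left untreated; the others received 10 µM aclarubicin, 9 µM doxorubicin, or both etoposide and aclarubicin, each at 10 µM. Drugs were removed after 2 h and the cells were studied 1 day later; neither times for the untreated cells nor the order of the combined drugs are in the labels. All groups share 1 cell line, and doxorubicin and aclarubicin are both anthracyclines, with different sugars on a related ring system. Single arrays give no spread between replicates and allow no test, so each difference compares 2 arrays, not 2 conditions. In bulk RNA, fewer cells and less RNA per cell cannot be told apart.

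As background, the cytosolic enzymes charge the transfer RNAs that the main ribosomes use, and the mitochondrial enzymes, made from separate nuclear genes for most amino acids, charge those of the mitochondrial ribosome. Several cytosolic enzymes are held together in the multi-synthetase complex, and the rest are called free-standing here. Many cytosolic synthetase genes are targets of ATF4, the transcription factor of the amino acid response, which binds a C/EBP-ATF response element. GARS1 and KARS1 each supply both compartments from 1 gene and are counted as cytosolic here.

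The arrays did not see the same number of genes. Of 48803 probes, the untreated array detected 13521, the aclarubicin array 9864, the doxorubicin array 14773 and the combination array 9128. Values are given first as the deposited bead signal and then as log2 differences of background-corrected, quantile-normalized levels for the 10077 genes that at least 1 array detected. If arrays are not scaled, the median of all genes lay at -0.66 on the aclarubicin array relative to untreated, at 0.06 on the doxorubicin array and at -0.92 on the combination array, against -0.04, 0.00 and -0.07 after quantile normalization. A higher level on either array with aclarubicin is therefore higher relative to the other genes on it. Among genes at least 2-fold different from untreated, the share that was higher was 49.4% for aclarubicin, 53.5% for doxorubicin and 52.9% for both drugs together; it was 6.27%, 60.6% and 5.41% without scaling and 38.5%, 53.9% and 40.7% with cyclic loess. The only error that can be given is between probes of one gene. Over 1229 genes with 2 probes detected on all 4 arrays, its log2 SD was 0.41 (aclarubicin), 0.32 (doxorubicin) and 0.46 (combination). Both probes were read on the same arrays, so the SD holds no error between arrays or cultures. The melanocyte genes SOX10, PMEL, TYRP1 and S100A1 were detected on all 4 arrays, MLANA, TYR and S100B on none, MITF and CSPG4 in untreated cells and after doxorubicin, and DCT had no named probe here. Of markers of other cells, 0 of 3 for keratinocytes, 1 of 4 for fibroblasts (PDGFRB, after doxorubicin alone) and 1 of 3 for leukocytes (CD68, on all arrays) were detected. CD68 was 3.36-fold, 1.89-fold and 4.20-fold higher than untreated on the aclarubicin, doxorubicin and combination arrays, while PTPRC and CD3E were detected on none. SOX10 was 10.3-fold lower with aclarubicin and 12.6-fold lower with the combination and differed by -0.59 on the log2 scale with doxorubicin. MITF was at least 2.43-fold, 1.87-fold and at least 2.05-fold lower on the aclarubicin, doxorubicin and combination arrays. TYRP1 was 6.97-fold lower after doxorubicin, but 1.47-fold and 1.18-fold higher after aclarubicin and the combination. In the order used for MITF, S100A1 was 4.18-fold, 1.55-fold and 5.29-fold higher, and PMEL 2.22-fold, 2.0-fold and 2.17-fold higher. CSPG4 was 4.11-fold higher after doxorubicin. The part of these markers in the results was not tested.

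After doxorubicin the synthetase genes lay low as a group. Of 34 members, 9 were at least 2-fold lower than in untreated cells and 1 was at least 2-fold higher, where 10.1% of all 9986 genes compared were lower and 11.6% higher. The members' shares were 26.5% lower and 2.94% higher. The median log2 difference was -0.70 for the 19 cytosolic genes and -0.42 for the 15 mitochondrial genes, beside 0.00 for all genes. In all, 31 of 34 members lay below 0, against 5060 of 10077 genes. The cytosolic median stayed between -0.55 and -0.76 and the mitochondrial median between -0.37 and -0.63 under the alternatives tried. The counts held less well. Of the cytosolic genes 7 were lower, but 5 without background correction, under median scaling, cyclic loess, no scaling or an offset of 50. Of all 10077 genes, 1004 were lower, and between 686 and 1096 under those alternatives.

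After aclarubicin the same genes were spread to both sides, with a few far below the rest. Of 34 members, 4 were at least 2-fold lower, where 17.3% of all 8987 genes compared were lower, and 3 were at least 2-fold higher, where 16.9% of all genes were higher. The members' shares, 11.8% and 8.82%, lay under that background. The cytosolic median was -0.23 and the mitochondrial median 0.11, beside -0.045 for all genes. Without scaling they were -0.43 and -0.97, beside -0.66 for all genes. The mitochondrial sign therefore depends on the scaling, and so does the side of the all-gene median on which each compartment lay. Without scaling 10 members were lower (5 cytosolic and 5 mitochondrial) and 0 higher, where 3437 of 10077 genes were lower and 230 higher. After etoposide plus aclarubicin, 6 members were lower, where 17.4% of 9002 genes were lower, and 2 were higher, where 19.5% were higher. The members' shares were 17.6% lower and 5.88% higher. Here the medians were -0.26 for cytosolic and -0.20 for mitochondrial genes, beside -0.066 for all genes. Without scaling they were -1.06 and -1.22, beside -0.92 for all genes. There 11 cytosolic and 8 mitochondrial genes were lower and 0 higher, where 4074 of 10077 genes were lower and 233 higher. Both arrays with aclarubicin and the doxorubicin array share the untreated array as their control.

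**Figure D1:**
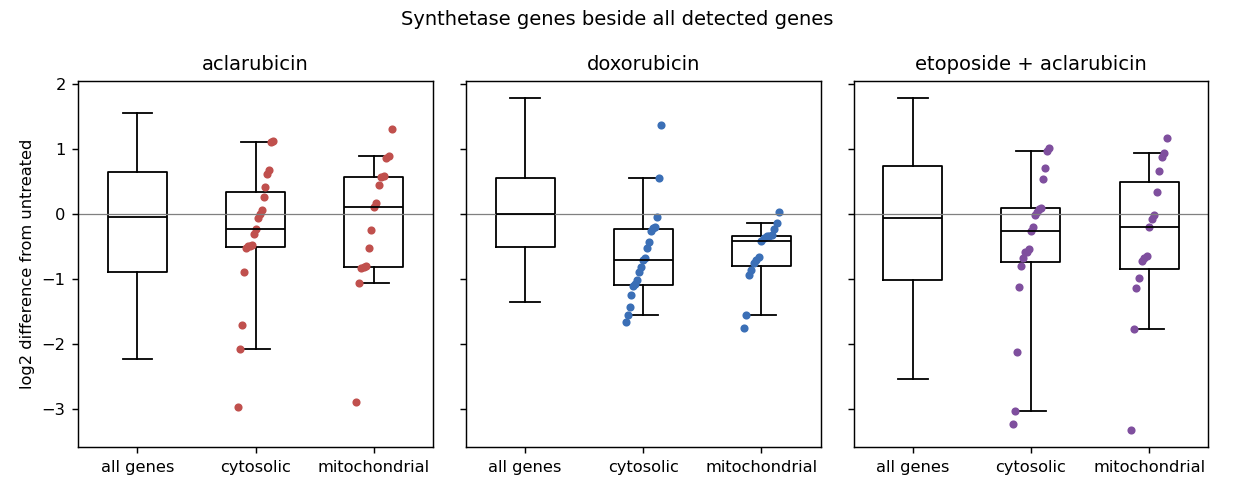
Log2 difference from untreated cells (vertical axis, quantile-normalized levels) for all 10077 detected genes, 19 cytosolic and 15 mitochondrial synthetase genes on each treated array. Boxes show the quartiles with the median, whiskers the 5th to the 95th percentile, and points single genes; after doxorubicin 31 of 34 points lie below 0, while after aclarubicin and after the combination they spread to both sides.

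The C/EBP-ATF response element core TGATGNAA, on either strand, was looked for in RefSeq promoter windows of the GRCh38.p14 assembly, from 250 bases before to 50 after an annotated gene start. Windows were given for 30 of the 35 genes; VARS1, VARS2, LARS1, YARS1 and AARS2 had none. The core was in a window of 8 of the 30 genes (26.7%) and of 4.46% of all 27305 genes. The E-box CACGTG was in 4 of 30 (13.3%) and in 8.77% of all genes: CARS2, EARS2, IARS1 and MARS2. The stretches around the core are shown for the 7 genes that were also measured, since this element ties synthetase genes to the amino acid response; the eighth was YARS2. They are written on the strand of the gene, with the core in capitals, which shows its reverse complement where it lies on the opposite strand.
AARS1, chr16:70289675-70289704, minus strand: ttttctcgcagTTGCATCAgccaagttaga
CARS1, chr11:3057407-3057436, minus strand: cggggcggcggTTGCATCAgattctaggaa
GARS1, chr7:30594834-30594863, plus strand: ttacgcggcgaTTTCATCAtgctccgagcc
IARS1, chr9:92293692-92293721, minus strand: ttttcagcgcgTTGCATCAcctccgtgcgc
MARS1, chr12:57488053-57488082, plus strand: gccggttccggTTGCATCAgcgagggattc
NARS1, chr18:57621804-57621833, minus strand: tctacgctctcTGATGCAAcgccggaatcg
TARS1, chr5:33440956-33440985, plus strand: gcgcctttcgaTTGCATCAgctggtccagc

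All 7 of these genes are cytosolic. A letter match is not evidence of binding, and a window without one says nothing about the factor. The 7 genes had medians of -0.70 (doxorubicin), -0.49 (aclarubicin) and -0.68 (combination), and the 22 measured genes whose windows lack the core had medians of -0.43, -0.24 and -0.37. They did not move as one: after aclarubicin TARS1 lay at -1.71 and MARS1 at 0.68. RARS1 and SARS1, described next, had neither motif in their windows.

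The multi-synthetase complex was represented by 7 of the genes: EPRS1, IARS1, LARS1, QARS1, MARS1, KARS1 and RARS1. All 7 lay below 0 after doxorubicin, with a median of -1.07, and 4 (57.1%) were at least 2-fold lower, where 10.1% of all genes were. Their medians were 0.06 after aclarubicin and -0.01 after the combination, with 1 of 7 (14.3%) at least 2-fold lower in each, RARS1, where 17.3% and 17.4% of all genes were, and 1 higher after aclarubicin, KARS1, where 16.9% were. The 12 free-standing cytosolic genes had medians of -0.62, -0.39 and -0.56 for doxorubicin, aclarubicin and the combination.

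RARS1, which encodes the arginyl enzyme, stood far from its partners in the complex. Its deposited signal was 2863 untreated, 280 with aclarubicin, 2102 with doxorubicin and 218 with both drugs. Both arrays with aclarubicin were low and the untreated and doxorubicin arrays high. Its log2 differences from untreated were -2.96 (aclarubicin), -0.43 (doxorubicin) and -3.03 (combination), which are 7.79-fold, 1.35-fold and 8.16-fold lower. Under the 9 alternatives the aclarubicin difference lay between -3.58 and -2.60.

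The other members of the complex had their lowest normalized level after doxorubicin, or were level. MARS1, the methionyl enzyme, had signals of 487 untreated, 401 with aclarubicin, 200 with doxorubicin and 332 with both drugs, and differed after doxorubicin by -1.56 (2.94-fold lower). EPRS1, the fused glutamyl and prolyl enzyme, had signals of 2582, 1614, 1126 and 1231 in the same order and differed by -1.44 after doxorubicin. In EPRS1 all treated arrays lay below the untreated one, and its differences after aclarubicin and the combination were -0.49 and -0.58. LARS1, the leucyl enzyme, also known as a leucine sensor of the mTORC1 pathway, had signals of 1138, 1011, 557 and 638 and differed by -1.25 after doxorubicin.

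KARS1, the lysyl enzyme, had signals of 662 untreated, 838 with aclarubicin, 363 with doxorubicin and 609 with both drugs. It differed by -1.07 after doxorubicin, 1.10 after aclarubicin and 0.97 after the combination; without scaling these were -0.92, 0.35 and -0.13. The doxorubicin array was thus the low one in the deposited signal itself. IARS1, the isoleucyl enzyme, differed by -0.68 after doxorubicin, 0.06 after aclarubicin and -0.26 after the combination, within 1 SD of probe disagreement after both treatments with aclarubicin. QARS1, the glutaminyl enzyme, was the most level member, with signals of 3072, 2883, 2742 and 2543 and differences of -0.06 with aclarubicin, -0.05 with doxorubicin and -0.01 with both drugs.

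**Figure D2:**
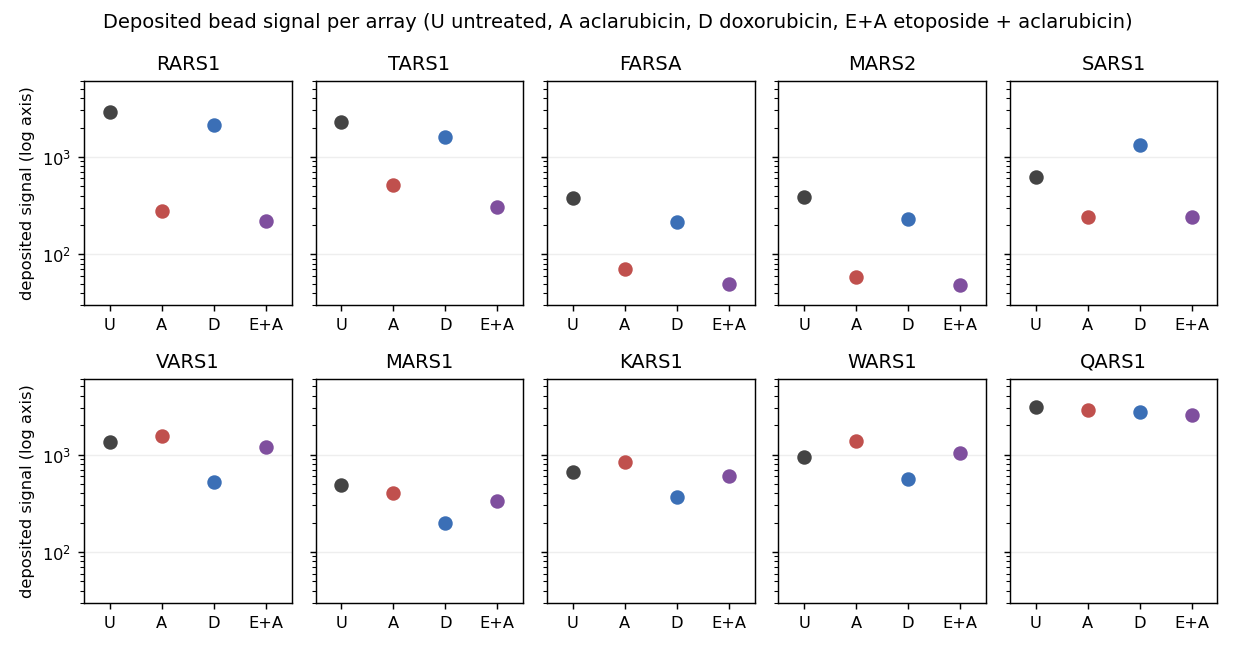
Deposited bead signal (log axis, arbitrary units) of 10 synthetase genes on the 4 arrays, 1 point per array. RARS1, TARS1, FARSA and MARS2 are lowest on both arrays with aclarubicin, VARS1, MARS1, KARS1 and WARS1 are lowest after doxorubicin, SARS1 is highest after doxorubicin at 1334, and QARS1 stays between 2543 and 3072.

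Among the free-standing enzymes, TARS1 and FARSA followed the arrays with aclarubicin. TARS1, the threonyl enzyme, had signals of 2252 untreated, 509 with aclarubicin, 1614 with doxorubicin and 304 with both drugs. It differed by -1.71, -0.53 and -2.13 from untreated, or 3.28-fold, 1.44-fold and 4.37-fold lower. FARSA, the alpha subunit of the phenylalanyl enzyme, had signals of 380 in untreated cells, 70.4 after aclarubicin and 216 after doxorubicin, was dimmer still after the combination, and was not detected on either array with aclarubicin. Where a gene was detected on 1 of 2 arrays, the fold is a lower bound against the dim array's lowest detected level or the probe's own, whichever is higher. FARSA was at least 3.08-fold lower after aclarubicin and at least 2.61-fold lower after the combination, and 2.03-fold lower after doxorubicin. Its doxorubicin difference lay between -1.13 and -0.83 under 8 alternatives and passed 2-fold in 4 of them.

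Its partner FARSB, the beta subunit, was read from a single probe on 3 of the arrays. The brighter probe gave signals of 14012, 18748, 17438 and 19824 and a log2 difference of 0.56 after doxorubicin. The dimmer one was detected in untreated cells alone, at 86.5. After doxorubicin, where it was not detected, its log2 difference was -0.90, opposite in sign to that of the brighter probe. Without FARSB the cytosolic medians were -0.27 with aclarubicin, -0.76 with doxorubicin and -0.40 with both drugs.

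SARS1, the seryl enzyme, was 1 of 3 members above 0 after doxorubicin, with FARSB (on its brighter probe) and PARS2. Its signal was 627 untreated, 242 with aclarubicin, 1334 with doxorubicin and 241 with both drugs. The doxorubicin array was the highest, and both arrays with aclarubicin were below the untreated one in signal. It was 2.59-fold higher after doxorubicin (log2 difference 1.37), the only member at least 2-fold higher there, and this lay between 1.10 and 1.37 under the 9 alternatives. After aclarubicin it differed by -0.47, and by -1.57 under median scaling.

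VARS1, the valyl enzyme, had the lowest cytosolic difference after doxorubicin, with signals of 1337 untreated, 1550 with aclarubicin, 527 with doxorubicin and 1201 with both drugs. It was 3.17-fold lower after doxorubicin, and differed by 0.62 after aclarubicin. Of its other 3 probes, 2 were not detected on any array and 1 in untreated cells alone. WARS1, the tryptophanyl enzyme and an interferon-inducible gene, had signals of 953, 1363, 563 and 1031 on its brighter probe. Its differences were 1.12, -0.89 and 1.02 for aclarubicin, doxorubicin and the combination, and those of its second probe 1.31, -0.67 and 1.14, so both probes ordered the arrays alike. Without scaling, the brighter probe gave 0.53 and 0.12 for the arrays with aclarubicin.

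GARS1, the glycyl enzyme, differed by -1.11 after doxorubicin, with signals of 4146, 3053, 2041 and 2008, and by -0.49 and -0.80 on the other treated arrays. AARS1, the alanyl enzyme, had signals of 3396, 1705, 2114 and 1156 and lay below untreated on all 3 treated arrays, by -0.89, -0.70 and -1.13. The cytosolic members that stayed under 2-fold on every treated array numbered 7, from -0.81 (NARS1, the asparaginyl enzyme) to 0.56 (FARSB) after doxorubicin and from -0.53 (NARS1) to 0.26 (CARS1, the cysteinyl enzyme) after aclarubicin. They include HARS1 and YARS1, the histidyl and tyrosyl enzymes, at -0.26 and -0.21 after doxorubicin.

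**Figure D3:**
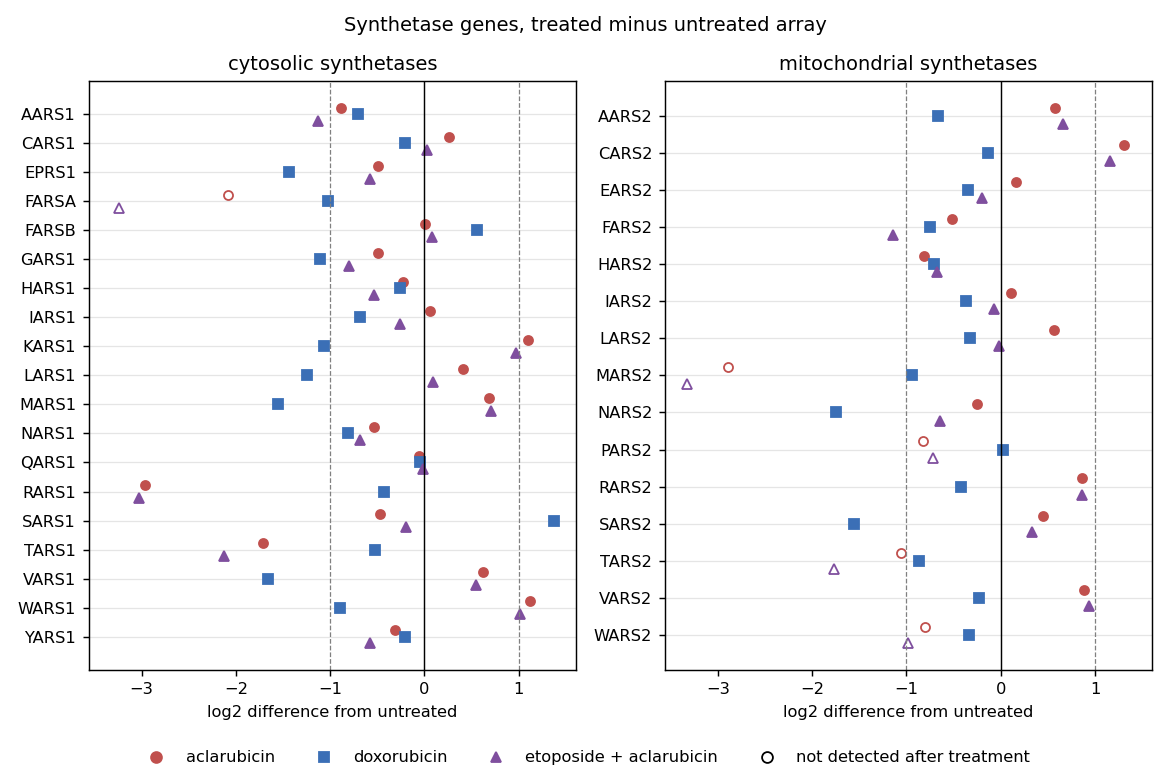
Log2 difference from untreated cells (horizontal axis, quantile-normalized levels) of 19 cytosolic and 15 mitochondrial synthetase genes after aclarubicin (circles), doxorubicin (squares) and etoposide plus aclarubicin (triangles). Dashed lines mark 2-fold and open symbols genes not detected after treatment; RARS1 at -2.96 and -3.03 and SARS1 at 1.37 stand out among the cytosolic genes, and MARS2 among the mitochondrial ones.

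Of the 16 mitochondrial genes, 15 had a named probe and 11 were detected on all 4 arrays. MARS2, the mitochondrial methionyl enzyme, had signals of 388 untreated, 58.0 with aclarubicin, 231 with doxorubicin and 48.5 with both drugs on its brighter probe. It was not detected on either array with aclarubicin and was at least 3.16-fold and at least 2.68-fold lower there. Its second probe, at 110 in untreated cells, was likewise detected in untreated cells and after doxorubicin and on neither array with aclarubicin. After doxorubicin the probes differed by -0.94 and -0.57.

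NARS2 and SARS2, the mitochondrial asparaginyl and seryl enzymes, were the mitochondrial genes at least 2-fold lower after doxorubicin. NARS2 had signals of 308 untreated, 135 with aclarubicin, 111 with doxorubicin and 95.1 with both drugs, and differed by -1.75 after doxorubicin (3.36-fold lower). On the deposited scale all its treated arrays were low; after normalization the differences on the arrays with aclarubicin were -0.25 and -0.65, and without scaling they were -1.42 and -2.11. SARS2 had signals of 342, 226, 139 and 175 and differed by -1.56 after doxorubicin (2.95-fold lower).

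CARS2, the mitochondrial cysteinyl enzyme, shows what the scaling does to a dim gene. Its signals were 259, 306, 254 and 224, a narrow range, yet its normalized difference was 1.31 after aclarubicin and 1.16 after the combination, and 0.27 and -0.24 without scaling. FARS2, the single-chain mitochondrial phenylalanyl enzyme, had signals of 327, 122, 220 and 81.1 and was 2.21-fold lower after the combination. The other 10 mitochondrial members with a probe ranged after doxorubicin from -0.86 (TARS2) to 0.02 (PARS2). TARS2, PARS2 and WARS2 were dim, at 146, 75.5 and 81.2 in untreated cells, and were not detected on either array with aclarubicin; TARS2 was at least 1.09-fold lower after aclarubicin, and no fold could be given for the others.

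For 13 pairs, the cytosolic and the mitochondrial gene of an amino acid could be set side by side. In the arginyl pair after aclarubicin, RARS1 differed by -2.96 and RARS2 by 0.86. In the methionyl pair it was the mitochondrial gene that was low: MARS1 differed by 0.68, and MARS2, no longer detected, was at least 3.16-fold lower. Without scaling, the differences after aclarubicin were -3.51 for RARS1, -0.01 for RARS2 and -0.30 for MARS1. After doxorubicin the seryl pair differed most, SARS1 by 1.37 and SARS2 by -1.56. HARS1 and HARS2, the histidyl pair, lie head to head on chromosome 5 with 84 bases between their annotated starts in GRCh38.p14; they differed by -0.26 and -0.70 after doxorubicin and by -0.23 and -0.81 after aclarubicin.

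The 2 anthracyclines were also compared directly, at 9 µM doxorubicin and 10 µM aclarubicin, close but unequal doses at the same times; this was 1 of 3 pairs of treatments compared. Of 34 members, 11 were at least 2-fold lower after doxorubicin than after aclarubicin, where 18.7% of all 9797 genes were lower, and 3 were at least 2-fold higher, where 18.3% were higher. The members' shares were 32.4% and 8.82%. The median difference was -0.28 for cytosolic and -0.51 for mitochondrial genes, beside 0.22 for all genes; without scaling these were -0.11, 0.35 and 0.98. With MARS2 at its bound, and PARS2, TARS2 and WARS2 left out for want of a bound, the mitochondrial median was -1.004. The all-gene median taken in the same way was 0.051. The measured differences of the genes left out were all above 0, at 0.849 (PARS2), 0.194 (TARS2) and 0.465 (WARS2). Without scaling, 4 cytosolic genes were lower and 4 higher, and 0 mitochondrial genes were lower and 3 higher. There 622 of 10077 genes were lower and 4014 higher, so that 86.6% of all genes past 2-fold were higher. Relative to the all-gene median, the cytosolic median lay at -0.51 with quantile normalization and -1.08 without scaling. The mitochondrial median lay at -0.73 and -0.63 relative to it.

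Lower after doxorubicin were VARS1 (4.87-fold), MARS1 (4.71-fold), KARS1 (4.50-fold), WARS1 (4.05-fold) and LARS1 (3.15-fold) among cytosolic genes, and AARS2, CARS2, NARS2, RARS2, SARS2 and VARS2 among mitochondrial genes. Higher were RARS1 (5.77-fold), SARS1 (3.60-fold) and TARS1 (2.27-fold). The probes' disagreement in this comparison had an SD of 0.50 on the log2 scale. VARS1, MARS1, KARS1, WARS1, RARS1, SARS1 and TARS1 were past 2-fold in the same direction under all 9 alternatives; LARS1 differed by -0.90 without scaling, and among the mitochondrial genes AARS2 by -0.01, VARS2 by -0.04, CARS2 by -0.30, RARS2 by -0.32, NARS2 by -0.35 and SARS2 by -0.84.

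**Figure D4:**
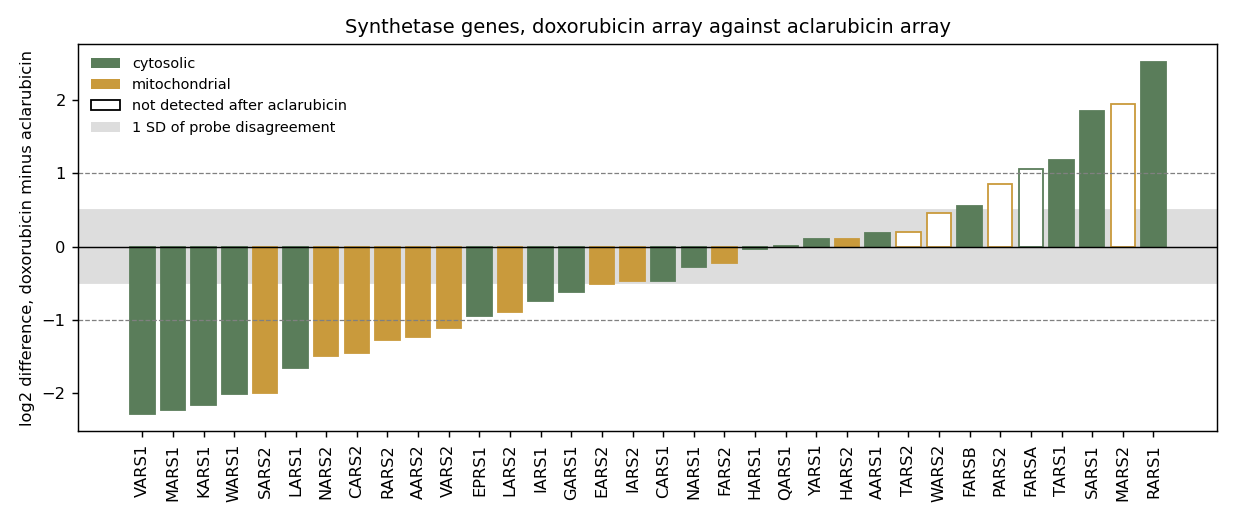
Log2 difference between the doxorubicin and the aclarubicin array (vertical axis, quantile-normalized levels) for 34 synthetase genes in order of size, cytosolic in green and mitochondrial in ochre. Open bars are genes not detected after aclarubicin, the grey band is 1 SD of probe disagreement (0.50) and dashed lines mark 2-fold; VARS1 is lowest and RARS1, at 2.53, highest.

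The combination array and the aclarubicin array were much alike over all genes, and the synthetase genes shared in this. Of 29 members detected on at least 1 of these arrays, 0 were at least 2-fold different, where 0.961% of all 6870 genes were lower and 0.451% higher. The differences of genes detected on both arrays ran from -0.63 (FARS2) to 0.27 (SARS1), where the probes disagreed with an SD of 0.17. The medians were -0.15 for cytosolic and -0.18 for mitochondrial genes, beside -0.006 for all genes, and 25 of 34 members lay below the all-gene median. The 34 include FARSA, MARS2, PARS2, TARS2 and WARS2, which neither of these arrays detected. With genes detected on neither array left out, the medians were -0.14 and -0.15, beside 0.019 for all genes taken by value or bound. Against doxorubicin, the combination had 11 of 34 members at least 2-fold higher, where 18.7% of 9788 genes were higher, and 3 lower, where 17.6% were lower; KARS1 differed by 2.04, MARS1 by 2.27 and RARS1 by -2.60. Without scaling, 1 member was higher and 11 lower there (6 cytosolic and 5 mitochondrial), where 449 of 10077 genes were higher and 4607 lower. Of all genes past 2-fold, 8.88% were then higher, against 51.5% with quantile normalization.

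The genes around the synthetases were described by lists. For all genes, the shares past 2-fold were 11.6% higher and 10.1% lower after doxorubicin, 16.9% and 17.3% after aclarubicin, and 19.5% and 17.4% after the combination. ATF4 itself differed by -0.85, -1.005 and -1.09 on the aclarubicin, doxorubicin and combination arrays. Of 24 detected genes of the ATF4 amino acid response, 4 were higher and 4 lower after doxorubicin, of 24 compared (median 0.00), and 2 were higher and 4 lower after aclarubicin, of 21 (median -0.31), and 2 higher and 4 lower after the combination, of 21 (median 0.00, but -1.04 without scaling). Its shares were 16.7% higher and 16.7% lower after doxorubicin, and 9.52% higher on each array with aclarubicin, where 4 of 21 were lower. The highest after doxorubicin were ATF3, a stress-induced transcription factor, at 3.45 and NUPR1, a stress-induced chromatin protein detected after doxorubicin alone, at least 5.55-fold higher. The lowest were PYCR1 and ALDH18A1, enzymes of proline synthesis: PYCR1, no longer detected, was at least 4.30-fold lower, and ALDH18A1 differed by -1.74. After aclarubicin ATF3 was at 3.30 and PYCR1 at 1.29, while SLC7A1, a carrier of cationic amino acids that include arginine, was at -2.29 and DDIT3, the stress factor CHOP, at -1.84. After the combination ATF3 was at 3.94 and PYCR1 at 1.45, and SLC7A1 at -2.81 and SLC1A5, a glutamine carrier, at -1.68.

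Of 32 detected genes of transfer RNA export, processing and modification, 7 were lower and 2 higher after doxorubicin (median -0.37), 5 lower and 2 higher after aclarubicin (median -0.50), and 7 lower and 3 higher after the combination (median -0.45). Its shares lower were 21.9%, 15.6% and 21.9%, in that order, where 10.1%, 17.3% and 17.4% of all genes were lower. Its shares higher were 6.25%, 6.25% and 9.38%, where 11.6%, 16.9% and 19.5% of all genes were higher. Without scaling its medians were -1.29 for aclarubicin and -1.503 for the combination. After doxorubicin the lowest were TSEN15, a subunit of the splicing endonuclease, at -2.30 and PUS7, a pseudouridine synthase, at -1.89, and the highest MTO1, which modifies mitochondrial transfer RNAs, at 1.79 and CLP1, an RNA kinase of the splicing complex, at 1.20. XPOT, the transfer RNA exporter, differed by -1.56 after doxorubicin, -0.54 after aclarubicin and -1.43 after the combination. After aclarubicin TRNT1, which adds the terminal CCA, was at least 3.26-fold lower and RPP40, a protein of ribonuclease P, was at -1.63, with CLP1 at 1.24 and ELAC2, which trims the trailing end, at 1.14. After the combination TRNT1 was at least 2.76-fold lower, RPP40 was at -1.69, CLP1 at 1.96 and TSEN54, another endonuclease subunit, at 1.07.

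The scaffold genes of the complex were not measured: AIMP1 was not detected on any array, and AIMP2 and EEF1E1 had no named probe here. The mitochondrial partners GATB and GATC, subunits of the glutamyl amidotransferase, differed by -0.61 and -0.08 after doxorubicin and by 0.58 and 0.86 after aclarubicin, and MTFMT, which formylates the initiator methionyl transfer RNA, by -0.22 and -0.27, and by -1.04 after the combination. Of 4 detected genes of charging quality control, 1 was lower after doxorubicin, DTD1, which removes D-amino acids from transfer RNAs, at -2.12. After either treatment with aclarubicin 0 were lower or higher. DTD2, PSTK and SEPSECS were detected on neither of those arrays. At 103, 136 and 107 in untreated cells, they were too dim for a 2-fold fall to be called there. Of the cytosolic elongation factors, 0 of 7 compared after doxorubicin and 0 of 6 after each treatment with aclarubicin were past 2-fold, with EIF5A the lowest after doxorubicin at -0.96 and EEF1D, an exchange factor subunit, the highest of those detected on both arrays at 0.39. Of 3 mitochondrial elongation factors, GFM1, the translocase, was lower after doxorubicin at -1.09, and TUFM, which brings charged transfer RNA to the ribosome, differed by -0.55 after doxorubicin and 0.93 after aclarubicin. MYC, a transcription factor that many translation genes answer to, differed by -3.23 after doxorubicin, -0.68 after aclarubicin and 0.00 after the combination; CDKN1A, the cell cycle inhibitor p21, differed by 5.03, 0.18 and 0.92. Their part in the synthetase values was not tested.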

How the data were processed

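Each array has a deposited intensity for every probe, not normalized, and a detection p-value, per the file headers. The authors also deposited normalized values, taken here as log2 from their range. Per the submitters' processing notes lumi was used; how it was run is not given here. The normalized table's medians over all probes were 2.28, 2.18, 2.30 and 2.12 for untreated, aclarubicin, doxorubicin and the combination; it kept each array's rank order of the signals (rho of 1) and equals the series' value table (largest difference 0). The table's scale and centring stay unknown, so it served as an alternative.

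Background correction used normexp in limma 3.58.1 under R 4.3.3 (the negative-control level inferred from detection p-values, offset 16), followed by quantile normalization over 4 arrays and log2. The probe error used the 2 brightest probes of a gene, both detected on all 4 arrays. It was the SD of their differing log2 changes, over the square root of 2. Quantile normalization removes a shift of most genes. A probe counted as detected at p under 0.01. Of 48803 probes, 27578 had 1 gene symbol in the platform annotation, 13 several and 21212 none. A gene was its probe of highest mean level among probes detected on at least 1 array. Called means at least 2-fold, with a bound where 1 of 2 arrays detected the gene. Genes detected on neither were not compared. Genes detected on 1 of 2 arrays for which no bound could be given stayed in the number compared and were never called. The members and lists were chosen with earlier results of these data known. Members at least 2-fold different from untreated on a treated array are given in full, the others by range, and of each list the 2 highest and 2 lowest, by value or bound. The number of arrays limits the precision. The calling step was tested on simulated data. Summaries used Python 3.11.15, numpy 2.4.6 and pandas 2.3.3.

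Alternatives were no background correction, median scaling of the corrected signals before the offset, cyclic loess, no scaling, the authors' normalized values, an offset of 50, the mean over probes, no detection filter, only probes detected on all 4 arrays, and calls at 1.5-fold or 3-fold. Leaving out FARSB was chosen after seeing the data.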

Additional observations from a re-analysis of the deposited data

How the results depend on the processing

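No paired analysis was possible because each group has 1 array, and no array could be left out. Both compartments' medians after doxorubicin against untreated stayed below 0 under the alternatives run. Under median scaling the medians were -1.02 for mitochondrial genes after aclarubicin (main 0.11), -1.02 and -1.22 for cytosolic and mitochondrial genes after the combination (main -0.26 and -0.20), 0.42 for mitochondrial genes in doxorubicin minus aclarubicin (main -0.51), -0.076 and -0.94 in the combination minus doxorubicin (main 0.14 and 0.29), and -0.37 for cytosolic genes in the combination minus aclarubicin (main -0.15). Without scaling they were -0.97, -1.06 and -1.22, 0.35, and -0.11 and -0.94 in the same order. In the combination minus aclarubicin the unscaled medians were -0.48 for cytosolic and -0.44 for mitochondrial genes. All-gene medians for these comparisons, in the order first given, were -0.72, -0.90, 1.03, -1.18 and -0.12 under median scaling. Unscaled, the all-gene medians were -0.66, -0.92, 0.98, -1.20 and -0.20. Cyclic loess gave -0.04 for mitochondrial genes after aclarubicin and 0.00 (-0.003) for cytosolic genes in the combination minus doxorubicin. Over probes detected on all 4 arrays the mitochondrial medians were -1.11 in doxorubicin minus aclarubicin and 1.10 in the combination minus doxorubicin, where undetected members are left out. CARS2 after the combination turned from 1.16 to -0.21 under median scaling and -0.24 without scaling. The median of the ATF4 amino acid response after the combination was -1.01 under median scaling, and those of transfer RNA processing were -1.33 after aclarubicin and -1.47 after the combination.

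Counts of members past the fold in either direction moved with the threshold and with the scaling. At 1.5-fold and 3-fold, cytosolic counts were 8 and 3 after aclarubicin (main 5), 9 and 2 after the combination (main 5) and, at 3-fold, 1 after doxorubicin (main 8). Mitochondrial counts at 1.5-fold and 3-fold were 5 and 1 after aclarubicin (main 2), 7 and 1 after doxorubicin (main 2) and 8 and 0 after the combination (main 3); at 3-fold 1 in doxorubicin minus aclarubicin and 1 in the combination minus doxorubicin (main 6 each), and at 1.5-fold 2 in the combination minus aclarubicin (main 0). Without scaling or under median scaling, 11 cytosolic and 8 mitochondrial genes passed after the combination, 5 and 6 mitochondrial genes after aclarubicin, and 3 mitochondrial genes in doxorubicin minus aclarubicin. Cyclic loess gave 3 cytosolic genes after aclarubicin and 4 mitochondrial after doxorubicin, and the authors' normalized values 3 cytosolic after the combination and 4 mitochondrial after doxorubicin. An offset of 50 gave 1 mitochondrial gene after the combination, and the mean over probes, or probes detected on all 4 arrays, 1 mitochondrial gene after aclarubicin. The causes were not tested. Among all 10077 genes, calls without scaling numbered 230 higher and 3437 lower after aclarubicin (main 1516 and 1553). After the combination they numbered 233 and 4074 (main 1757 and 1566). In doxorubicin minus aclarubicin they numbered 4014 and 622 (main 1788 and 1830), and in the combination minus doxorubicin 449 and 4607 (main 1829 and 1725). PARS2 and WARS2 were too close to background for a fold to be given on the arrays with aclarubicin, and TARS2 on the combination array.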
